A study of Homo sapiens with 10 samples.

Results

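Chromatin accessibility of SLFN11 knockout cells was set against that of parental cells after 6 h in 100 nM prexasertib. The comparison took in every accessible region called in at least 1 of the 2 libraries, which was 27625 of the 35505 regions called in any of the 10 libraries of the series. Of these, 4791 (17.3%) were called in knockout cells only, 4670 (16.9%) in parental cells only and 18164 (65.8%) in both. Summits at the shared regions were lower in knockout cells, with a median log2 ratio of height of -0.47 (-0.48 to -0.46). Over the same set peaks were wider, with a median log2 ratio of width of 0.11 (0.10 to 0.12). This width ratio was 0.04 with the width of the narrowest peak of each list taken off. Both a lower summit and a wider peak were found at 46.8% of the shared regions. All ratios are knockout over parental.

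Both lines are CCRF-CEM, a human T lymphoblast line from a leukemia. The knockout line is labelled as a knockout of SLFN11 and the other as wild type. The knockout and the parental line each gave 1 library after DMSO, after 2, 4 and 6 h of 100 nM prexasertib and after 4 h of 100 nM camptothecin. The series asks how accessibility responds to replication stress when SLFN11 is present or missing. The sources used here do not say how the gene was disrupted or whether the line is a single clone, so a difference of genotype and a difference of cell stock cannot be told apart. With 1 library per group there is no replicate spread, no test was possible and no p-value is given. Intervals in parentheses are at 95% confidence and cover counting error over regions only, and regions are not replicates.

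ATAC-seq uses a transposase that inserts sequencing adapters into DNA not wrapped in nucleosomes, so reads pile up at promoters, enhancers and other open sites. CHK1 is a checkpoint kinase that holds back origin firing and mitosis when replication forks stall, and prexasertib inhibits it, which leaves cells with excess firing and stressed forks. SLFN11 is a helicase-like protein that is recruited to stressed forks and blocks further replication, and its loss is known to make cancer cells tolerate drugs that damage replicating DNA. In a bulk population, a higher summit from more cells with an open site and one from more open DNA in each cell cannot be told apart.

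The libraries differed in ways that bear on every value below. Height is the number of fragments piled up at the highest summit of a region divided by the genome-wide background pileup of its library, and this background was 1.99 in the knockout library and 1.52 in the parental library. Read counts are not in the deposited lists, so the background stands in for depth. The narrowest peak of the list measured 194 bp in the knockout library and 160 bp in the parental library, against 196 and 199 bp in the knockout and parental DMSO libraries, and it was lowest of all 10 lists in the parental 6 h library. The smallest length a peak caller reports is usually tied to the fragment length it uses, and a shorter fragment length usually goes with a lower background. Per bp of smallest width, the background of the knockout library was 1.08 times that of the parental one, against 1.31 times without this division. The part of this setting in the height, width and number of peaks was not tested directly, and values that allow for it are given beside the results. The genomic position of SLFN11 and the markers of T cells were not examined, because no annotation of build hg19 was used here. Regions are therefore named by hg19 position, 1-based, and the knockout rests on the labels.

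The regions called in 1 genotype only were mostly weak. Those called in knockout cells only had a median −log10 q of 4.08, a median height of 7.02 and a median width of 309 bp, and 240 of them (5.01%, 4.41% to 5.67%) reached a −log10 q of 10. Those called in parental cells only had a median −log10 q of 4.14, a median height of 7.87 and a median width of 243 bp, and 451 (9.66%, 8.82% to 10.5%) reached it. Shared regions had a median −log10 q of 16.7 in the knockout list and 20.8 in the parental list. Sorted into 5 equal classes of −log10 q from weak to strong, 62.5%, 32.8%, 8.49%, 0.414% and 0.196% of the regions in the knockout list had no parental call. In the parental list the shares without a knockout call were 58.6%, 31.8%, 10.3%, 1.18% and 0.350%. Presence in 1 genotype was thus found mostly at peaks near the calling threshold in both lists, and the strongest class held 9 knockout-only and 16 parental-only regions.

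The number of such regions was close to equal, 121 more in knockout cells, but this balance rested on how narrow peaks and depth were handled. Of the parental-only regions, 1144 (24.5%, 23.3% to 25.8%) were narrower than 194 bp, a width that no peak of the knockout list has. Among shared regions 622 (3.42%) had a parental peak that narrow. When peaks under 194 bp were left out of both lists, 5413 regions were knockout only and 3526 parental only. With the knockout pileups scaled down to the parental background, 3433 regions were knockout only and 5237 parental only.

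**Figure D1:**
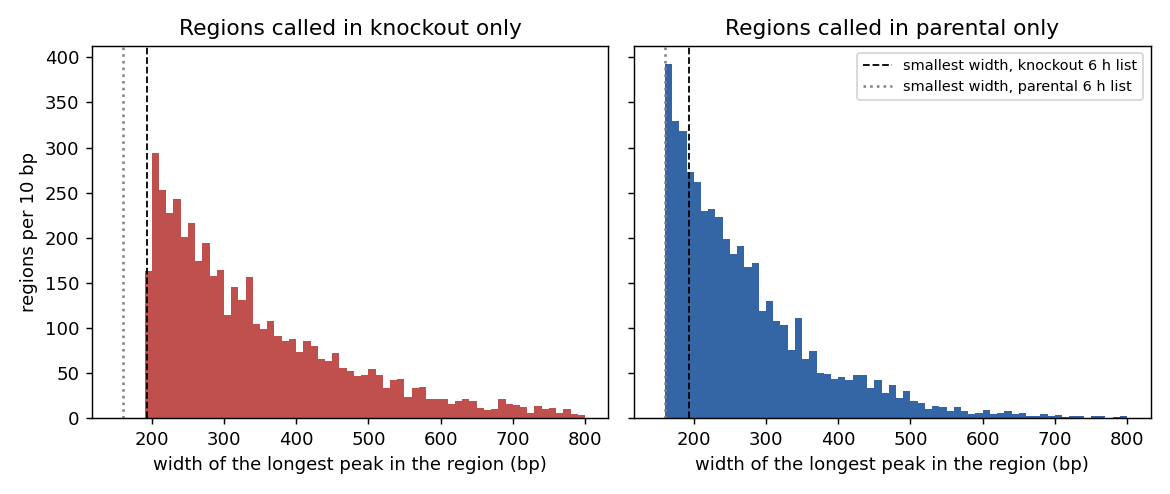
Width of the longest peak, in bp, in regions called in knockout cells only (left) and in parental cells only (right) after 6 h of prexasertib; bars count regions per 10 bp and widths over 800 bp are not drawn. The dashed line marks the narrowest peak of the knockout list (194 bp) and the dotted line that of the parental list (160 bp), and 1144 parental-only regions lie between them.

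The calls of the 2 sets in the other libraries have to be read against the length of those lists. Of all 35505 regions, the knockout lists held 56.2% with DMSO, 66.96% after 2 h and 59.6% after 4 h of prexasertib, and the parental lists held 44.2%, 43.5% and 49.5%. Of the knockout-only regions, 33.8% were also called in knockout cells with DMSO, 49.6% after 2 h and 37.0% after 4 h of prexasertib. In the parental libraries these regions were called at 16.0%, 13.9% and 15.03% for the same conditions. Parental-only regions were called in the knockout libraries at 17.2% with DMSO, 27.5% after 2 h and 20.5% after 4 h. In the parental libraries they were called at 8.97%, 8.16% and 15.9% for the same conditions. Shared regions were also called more often in these knockout lists, at 88.6%, 94.3% and 91.7%, than in the parental ones, at 76.3%, 75.6% and 84.3%. The knockout 2 h library had the highest background pileup of the series, 2.1, and the parental 4 h library, whose raw reads are recorded as truncated, had the lowest, 1.33. After camptothecin, which traps topoisomerase I on DNA, knockout-only regions were called in 27.2% of cases in knockout cells and 27.4% in parental cells, and parental-only regions in 12.2% in knockout cells and 30.2% in parental cells. The camptothecin lists held 52.4% of all regions in knockout cells and 60.4% in parental cells.

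Few regions called in 1 genotype only at 6 h were called in every library of that genotype and in none of the other. Of the knockout-only regions 600 (12.5%, 11.6% to 13.5%) were called in all 5 knockout libraries, and 128 of them in no parental library. Of the parental-only regions 66 (1.41%, 1.09% to 1.79%) were called in all 5 parental libraries, and 2 of them in no knockout library. Regions called in no other library of the series numbered 1488 (31.1%) among the knockout-only and 2099 (44.9%) among the parental-only ones. About the same share of each set, 58.4% of the knockout-only and 58.0% of the parental-only regions, had no call in any library of the other genotype. Such counts can depend on list length, and outside 6 h the knockout lists were the longer ones in every condition but camptothecin. No matching shares over all regions were taken. Of all 35505 regions, 11603 were called in all 10 libraries and so in every library of both genotypes, and the 2 sets here can hold none of these. The part of list length in the contrast of 600 with 66, and in the other shares, was not tested.

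Most regions called in 1 genotype only with DMSO belonged to another class at 6 h. Of the 5723 regions called in knockout cells only with DMSO, 2712 (47.4%) were shared at 6 h, 1124 (19.6%) were still knockout only, 597 (10.4%) were parental only and 1290 (22.5%) were called in neither. Of the 1466 regions called in parental cells only with DMSO, 475 (32.4%) were shared at 6 h, 269 (18.3%) were knockout only, 212 (14.5%) were still parental only and 510 (34.8%) were in neither. Among all 35505 regions, 18164 were shared at 6 h, 4791 were knockout only, 4670 parental only and 7880 called in neither. The share still parental only was thus close to the share over all regions. For regions called in knockout cells only with DMSO, the shares that were shared or in neither at 6 h were also near those over all regions. Of the 14231 regions shared with DMSO, 13377 (94.0%) were shared at 6 h. Regions called in neither DMSO library supplied 2902 (60.6%) of the knockout-only and 3654 (78.2%) of the parental-only regions. They also supplied 1600 (8.81%) of the shared ones.

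The strongest knockout-only region was chromosome 2, 88124413 to 88124859, with 364 fragments at the summit, a height of 183 and a −log10 q of 362. The region was called in all 5 knockout libraries and in 3 parental ones, and its height with DMSO was 218 in knockout cells and 223 in parental cells. It thus stood at nearly the same height in both genotypes without drug and had no parental call at 6 h. Chromosome 10, 42542940 to 42543899, with a height of 118 and a −log10 q of 68.6, was called in all 5 knockout libraries and in no parental library. The height there with DMSO was 114 in knockout cells, and the width was 931 bp at 6 h. Next in order came chromosome 10, 135524373 to 135524747, at a height of 46.6, chromosome 2, 89867945 to 89868344, at 118, and chromosome 7, 57997195 to 57997592, at 57.2. Chromosome 4, 49155215 to 49155695, reached the largest height of the set, 198, but only 2.11 times its local background, and was called in that library alone. Chromosome 19, 24571427 to 24572019, at 30.6, and chromosome 16, 35229024 to 35229356, at 35.6, completed the 8. Among knockout-only regions with no call in any parental library, the next strongest were chromosome 2, 243152480 to 243152824, at a height of 25.1, chromosome 4, 49652511 to 49652837, at 49.6, and chromosome 11, 48962958 to 48963933, at 20.6.

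The strongest parental-only regions were unlike these in width. The first, chromosome 1, 567268 to 567575, had a −log10 q of 793, and the second, chromosome 1, 569303 to 569471, one of 398. Their pileups could not be recovered, and their enrichment over the local background was only 3.12 and 2.42. This stretch of the assembly is known to resemble mitochondrial DNA, to which reads can be assigned by similarity. Chromosome 3, 196625617 to 196625777, had 226 fragments, a height of 148 and 33.4 times its local background in a peak of 161 bp. Chromosome 8, 70602342 to 70602521, had 117 fragments and a height of 76.7 in a peak of 180 bp. Both were called in no other library. Chromosome 2, 89872070 to 89872252, and chromosome 2, 89869742 to 89869948, at heights of 200.1 and 176, lie on the same stretch as a knockout-only region named above. Chromosome X, 61720873 to 61721217, at a height of 171, and chromosome 10, 42545975 to 42546159, at 97.1, completed the 8. Of these 8 peaks 6 were narrower than 194 bp, as were 12 of the 20 strongest.

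Among the 20 strongest regions of each kind, 13 knockout-only, 9 parental-only and 14 shared regions lay within 3 Mb of the longest stretch of their chromosome without any region, which on most chromosomes is the centromere or the short arm. Over whole sets the shares there were 5.03% for knockout-only, 5.52% for parental-only and 4.77% for shared regions. The strongest calls of every kind were thus gathered there, and such repeat-rich DNA is known to collect reads that cannot be placed surely. On chromosome X the longest stretch without any region ran from 32174167 to 36884797. The parental-only region at chromosome X, 61720873, was therefore not counted as near it.

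Regions called in all 5 knockout libraries and in no parental library lay elsewhere too. After the chromosome 10 region above, the strongest were chromosome 7, 1569985 to 1571161, with a height of 19.1, and chromosome 13, 113343821 to 113344944, with 17.1. Chromosome 5, 140855281 to 140855969, had 13.5 and chromosome 11, 14379928 to 14380829, had 14.5. In the knockout DMSO library their heights were 18.2, 12.5, 12.5 and 19.4 in the same order. This list was added after the values were seen.

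At the shared regions, the summit was lower in knockout cells at 79.6% of the 18131 regions with a recovered pileup in both libraries. The median height was 18.6 in knockout cells and 25.6 in parental cells, while the pileup before division was 37 fragments in knockout cells and 39 in parental cells. The height was more than 2-fold lower in knockout cells at 2156 regions (11.9%) and more than 2-fold higher at 88 (0.485%). The size of the difference depended on the background: the median log2 ratio was -0.27 over the local background, -0.19 over the background per bp of smallest width and -0.08 (-0.09 to -0.07) with no division. The median was negative under each of the 4, but the share of regions lower in knockout cells was 77.7%, 63.8% and 54.4% in the same order, and 42.05% were higher with no division. Summits lay a median of 45 bp apart in the 2 libraries, and 74.8% lay within 100 bp.

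The longest peak in a shared region was wider in knockout cells at 62.7% of the 18164 regions, by a median of 46.5 bp. Its median width was 680.5 bp in knockout cells and 597.5 bp in parental cells. Width was more than 2-fold greater in knockout cells at 1592 regions (8.76%) and more than 2-fold smaller at 259 (1.43%). With the smallest width of each list taken off, the median log2 ratio was 0.04 (0.03 to 0.05) and 53.3% of regions were wider. Regions with several summits, counted over all their peaks, made up 25.2% of the shared regions in knockout cells and 30.7% in parental cells.

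Lower summits and wider peaks were properties of the set more than of the same regions. Both held at 8490 regions (46.8%, 46.1% to 47.6%), whereas the shares of lower and of wider regions multiplied together give 49.9%. Another 32.4% were lower and narrower in knockout cells, 15.9% higher and wider, and 4.46% higher and narrower. Across regions the log2 ratios of height and width were positively related, with Pearson's r of 0.34 and Spearman's rho of 0.30 over 18131 regions that share the same pair of libraries, so regions with a relatively higher knockout summit tended to be those with a relatively wider knockout peak. Of the regions more than 2-fold lower, 46.2% were wider, and only 42 were past 2-fold in both, against 59 that were more than 2-fold lower and more than 2-fold narrower. When the smallest width was allowed for in both height and width, 29.6% of regions were lower and wider.

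**Figure D2:**
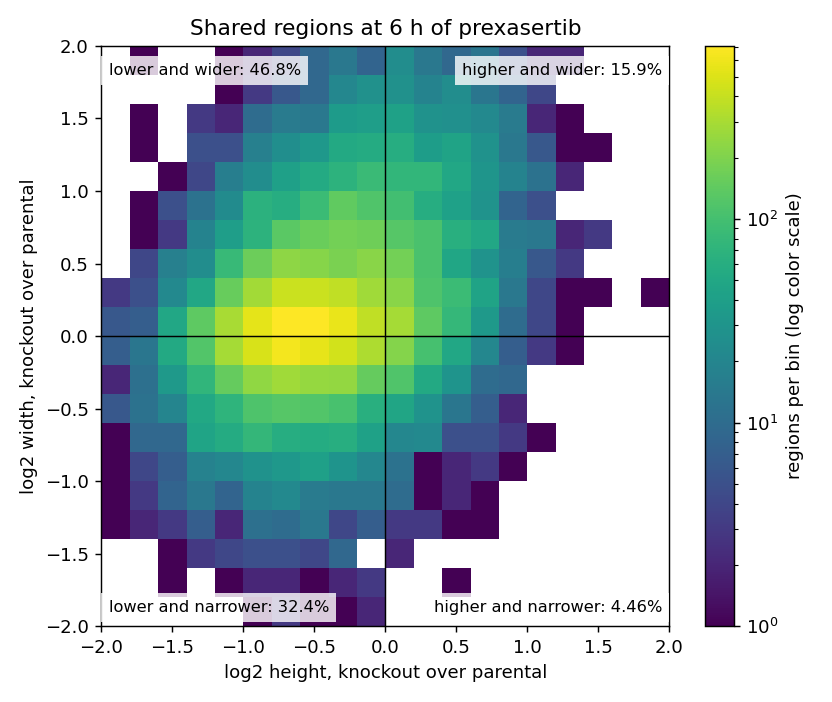
Log2 ratio of height against log2 ratio of width, knockout over parental, at regions called in both libraries after 6 h of prexasertib; color gives the regions per bin on a log scale, and 127 regions beyond 2 units are not drawn. The bulk lies left of 0 on the height axis, 46.8% of regions are lower and wider in knockout cells and 32.4% are lower and narrower.

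Peaks of equal height were wider in the knockout library. At heights of 5 to 7 the median width was 291 bp in knockout cells and 221 bp in parental cells. At heights of 10 to 15 it was 441 and 326 bp in knockout and parental cells, and at heights of 40 to 60 it was 943 and 699 bp. The difference was thus 70 bp at the low end and 244 bp at the high end, against 34 bp between the smallest widths. Since a given height stands for more fragments in the knockout library, equal height is not equal depth.

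Among regions called in both lists, strong ones differed more in height and less in width than weak ones. Strength was taken from the mean log2 height in the DMSO libraries, which are outside the 6 h contrast, in 5 equal classes of the regions shared in both conditions. From weakest to strongest, the median log2 height ratio was -0.29, -0.42, -0.54, -0.61 and -0.61. In the weakest class the median height was 11.5 in knockout cells and 13.8 in parental cells, and in the strongest 48.6 in knockout cells and 74.8 in parental cells. The share of regions lower in knockout cells was 68.1% in the weakest class and 92.4% in the strongest. Over the background per bp of smallest width, the weakest class stood at -0.01 (-0.04 to 0.02) and the strongest at -0.33, so that the interval of the weakest class then included 0. With no division the weakest class turned positive, at 0.10 (0.07 to 0.13), while the strongest stayed negative, at -0.22. With classes made from the 6 h libraries, the weakest was also positive over the background per bp of smallest width, at 0.12 (0.10 to 0.14). A shared region needs a call in both lists, and the smallest height at a shared region was 4.51 in knockout and 5.25 in parental cells. Weak regions with a large difference can thus lack a call in 1 list and leave the shared set. The part of this limit in the trend over classes was not tested.

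The median log2 width ratio was 0.16, 0.11, 0.10, 0.08 and 0.07 over the same classes. In bp the classes differed little, with peaks wider in knockout cells by a median of 54 bp in the weakest and 49 bp in the strongest. The share of regions both lower and wider was 37.4%, 41.7%, 51.8%, 57.5% and 60.9%. The share of wider regions alone was 62.5% in the weakest class and 66.8% in the strongest, against 68.1% and 92.4% for lower regions. The rise thus went mostly with the share of lower regions. Regions more than 2-fold wider in knockout cells made up 13.5% of the weakest class and 3.18% of the strongest. Regions that had been called in neither DMSO library and were shared at 6 h had a median log2 height ratio of -0.31, against -0.51 for those called in both.

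**Figure D3:**
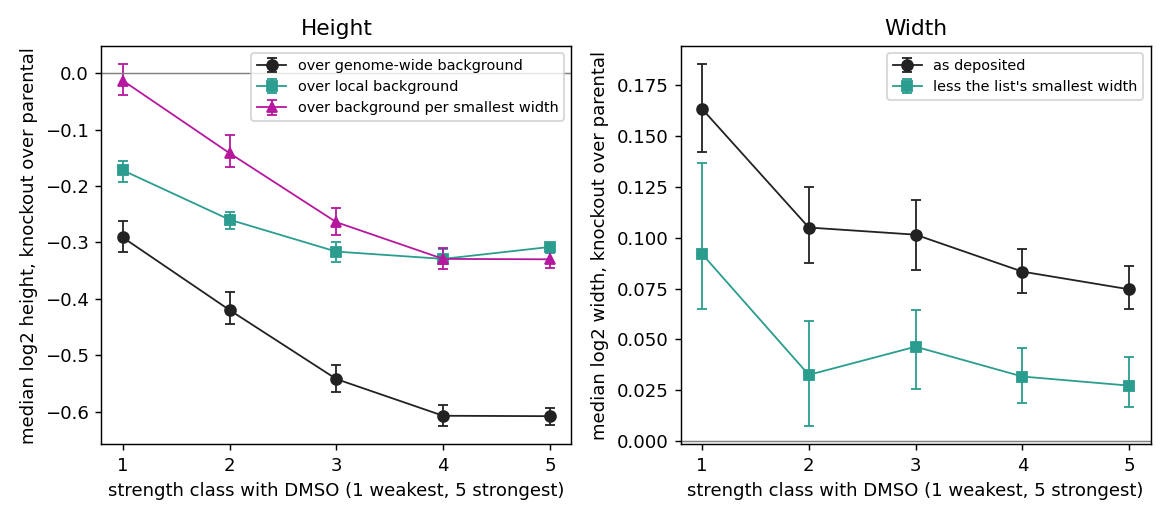
Median log2 ratio, knockout over parental at 6 h, of height (left) and width (right) at shared regions in 5 classes of strength with DMSO; bars are 95% order-statistic intervals over regions, and lines differ in how height was scaled or width adjusted. Height over the genome-wide background goes to -0.61 in the strongest classes, and width as deposited lies at 0.16 in the weakest class and 0.07 in the strongest.

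All 23 chromosomes had a median height ratio below 0 and a median width ratio above 0. Chromosome 19, which is known as the most gene-dense, stood at one end, with a median log2 height ratio of -0.76 (-0.78 to -0.73) and a log2 width ratio of 0.01 (-0.01 to 0.04). Chromosome 4, which is known as gene-poor, stood at the other, with -0.26 (-0.30 to -0.20) and 0.17 (0.13 to 0.22). Chromosomes 17, 22 and 16 followed chromosome 19 at -0.65, -0.62 and -0.58, and chromosomes 8, X and 18 lay next to chromosome 4 at -0.29, -0.29 and -0.32. Intervals of neighbours in this order mostly overlap. Over the local background, chromosome 19 stood at -0.36 and the highest, chromosome 18, at -0.20. The distance between the extremes was thus 0.16, against 0.50 over the genome-wide background. Over the background per bp of smallest width, 22 chromosomes stayed below 0 and chromosome 4 lay at 0.02 (-0.02 to 0.07). For width, taking off the smallest width of each list turned the median below 0 on 4 chromosomes, among them chromosome 19 at -0.08 (-0.11 to -0.05) and chromosome 17 at -0.05 (-0.08 to -0.02), with chromosomes 15 and 16 at -0.02 each and intervals that included 0.

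The 2 extremes changed places with DMSO, where chromosome 19 had the highest median log2 height ratio, 0.50, and chromosome 4 the lowest, 0.31.

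Regions in 1 genotype only followed a similar order on the knockout side. Knockout-only regions made up 6.13% (4.96% to 7.47%) of the regions on chromosome 19 and 25.5% (23.03% to 28.1%) of those on chromosome 4. Parental-only regions varied less, between 13.0% (11.1% to 14.99%) on chromosome 4 and 21.3% (18.7% to 24.1%) on chromosome 20. On chromosome 19 there were 91 knockout-only and 266 parental-only regions, 0.342 per parental-only region, and on chromosome 4 there were 303 knockout-only and 154 parental-only regions, or 1.97. Knockout-only regions outnumbered parental-only ones on 12 chromosomes, and the reverse held on 11, or on 4 when parental-only peaks under 194 bp were left out. The count of 4 keeps the knockout-only numbers unchanged, unlike the removal of such peaks from both lists above. Over the 23 chromosomes, which share both libraries and differ in base composition and gene density, Pearson's r of the median height ratio with the knockout-only share was 0.91, and with the parental-only share it was -0.43.

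**Figure D4:**
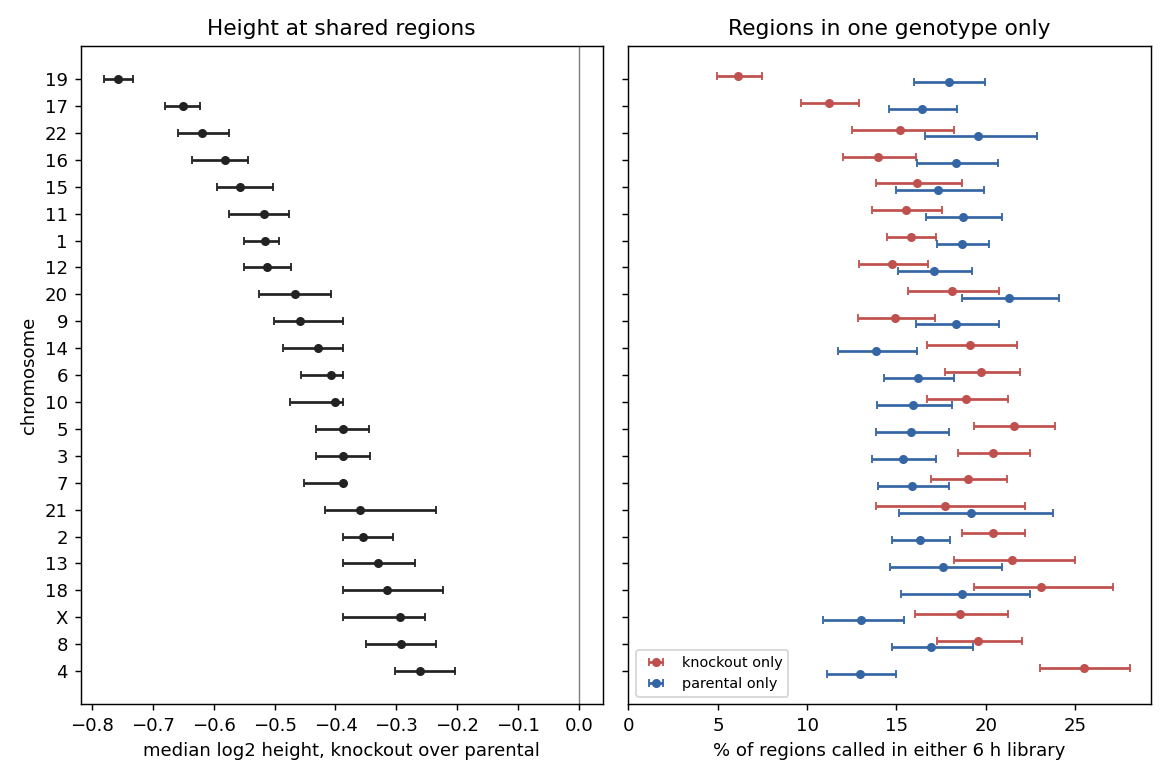
Median log2 height ratio at shared regions, knockout over parental at 6 h (left), and share of regions called in knockout cells only and in parental cells only (right), by chromosome, in order of the height ratio; bars are 95% intervals over regions. Every chromosome lies below 0 for height, and the knockout-only share is 6.13% on chromosome 19 and 25.5% on chromosome 4.

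The difference was spread along chromosomes. Of 1432 windows of 1 Mb with at least 5 shared regions, 1326 (92.6%) had a median height lower in knockout cells, 1144 had a median width greater in knockout cells and 1045 (72.97%) had both. Windows were ranked by count, and a window with many regions can rank high without a large share. Over all chromosomes 17.3% of regions were knockout only and 16.9% parental only. The windows with the most knockout-only regions were chromosome 14 from 106 Mb on and chromosome 6 from 166 Mb on. In the chromosome 14 window 14 of 48 regions were knockout only and 8 parental only. In the chromosome 6 window 12 of 23 were knockout only and 2 parental only. In the chromosome 6 window the 9 shared regions had a median log2 height ratio of 0.24, against the direction of the genome, and a log2 width ratio of 1.15. The window on chromosome 20 from 61 Mb on held 12 knockout-only and 6 parental-only regions of 48. Those on chromosome 3 from 112 Mb on and from 18 Mb on each held 10 knockout-only regions, of 17 and 18. Beside these they held 3 and 2 parental-only ones. The 6 shared regions in the window from 18 Mb on also had higher summits in knockout cells, with a median log2 height ratio of 0.49. On the parental side, chromosome 17 from 48 Mb on held 3 knockout-only and 12 parental-only regions of 31. Chromosome 16 from 85 Mb on held 8 knockout-only and 12 parental-only regions of 32, so its knockout-only share was also above that over all chromosomes. The first window of chromosome 1 held 2 knockout-only and 12 parental-only ones of 33. Chromosome 16 from 32 Mb on held 2 knockout-only and 11 parental-only regions of 15, and chromosome 22 from 22 Mb on held 4 knockout-only and 11 parental-only ones of 26.

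The shared region with the lowest height ratio was chromosome 17, 51183243 to 51183744. It had 24 fragments and a height of 12.0 in knockout cells, against 165 fragments and a height of 108 in parental cells, and no call in either DMSO library. The parental peak there was 173 bp wide and the knockout peak 502 bp, which also made it the region with the largest combined fall in height and gain in width. At chromosome 17, 16472055 to 16472697, the height was 4.51 in knockout cells and 30.8 in parental cells, with widths of 541 and 553 bp in knockout and parental cells. Chromosome 2, 61990942 to 61991806, was called in all 10 libraries and had a height of 8.53 in knockout cells and 40.01 in parental cells at 6 h. With DMSO the heights there were 10.7 in knockout cells and 12.9 in parental cells. The parental value at 6 h thus stood apart from the DMSO and knockout 6 h values, and heights in the other libraries are not given here. Chromosome 17, 46655490 to 46656073, at 6.02 in knockout and 24.9 in parental cells, and chromosome 1, 150459546 to 150460249, at 9.53 in knockout and 38.7 in parental cells, were next.

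Of the 5 regions with the highest ratio, 4 were called in both DMSO libraries, and 3 of those had the higher summit in knockout cells there too. Chromosome 5, 15271645 to 15272298, had a height of 24.1 in knockout cells and 6.56 in parental cells at 6 h, and with DMSO 16.9 in knockout cells and 7.35 in parental cells. Chromosome 15, 45814384 to 45815206, had 21.6 in knockout cells and 7.22 in parental cells, and 24.5 and 7.96 in knockout and parental cells with DMSO. Chromosome 5, 1097954 to 1098886, had 24.1 in knockout cells and 7.87 in parental cells, with no parental call with DMSO. Chromosome 4, 103519447 to 103520112, had 14.5 in knockout cells and 5.25 in parental cells, and 16.3 in knockout and 10.4 in parental cells with DMSO. At chromosome 3, 98370154 to 98371163, the order changed: the height was 14.5 in knockout and 5.25 in parental cells at 6 h, and 8.78 in knockout and 11.0 in parental cells with DMSO.

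In width, chromosome 10, 17495453 to 17496896, differed most, at 1410 bp in knockout cells and 178 bp in parental cells. Its heights were 14.5 in knockout and 9.84 in parental cells, and the knockout DMSO peak was 1378 bp wide. The next were chromosome 12, 3563210 to 3564507, at 1298 bp in knockout and 176 bp in parental cells, chromosome 4, 15963799 to 15965143, at 1183 bp in knockout and 164 bp in parental cells, chromosome 5, 56246615 to 56248107, at 1085 bp in knockout and 161 bp in parental cells, and chromosome 6, 119398955 to 119400348, at 1394 bp in knockout and 210 bp in parental cells. In 4 of these 5 the parental peak was narrower than the knockout list's smallest. In the opposite direction, chromosome 1, 150253869 to 150254968, was 220 bp wide in knockout cells and 1050 bp in parental cells, at heights of 8.53 in knockout and 10.5 in parental cells. Chromosome 2, 219151132 to 219152065, was 202 bp wide in knockout and 861 bp in parental cells. Chromosome 8, 124172783 to 124173585, chromosome 12, 10516844 to 10517909, and chromosome 5, 149789480 to 149790493, had 195, 213 and 266 bp in knockout cells, against 803, 870 and 1002 bp in parental cells.

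Clear cases of a lower and wider knockout peak were few. Chromosome 9, 131580545 to 131581615, had a height of 16.5 and a width of 1036 bp in knockout cells, against a height of 52.5 and a width of 383 bp in parental cells. Chromosome 19, 3699739 to 3700811, had a height of 16.5 and a width of 825 bp in knockout cells, against 43.3 and 284 bp in parental cells. With DMSO the order of heights was the other way at both, at 27.6 in knockout and 16.5 in parental cells on chromosome 9, and 25.1 in knockout and 15.3 in parental cells on chromosome 19. The others chosen by the product of both ratios were chromosome 4, 966712 to 967712, with heights of 9.03 in knockout and 28.9 in parental cells and widths of 1001 bp in knockout and 265 bp in parental cells, and chromosome 19, 34745101 to 34746150, with heights of 9.53 in knockout and 29.5 in parental cells and widths of 802 bp in knockout and 316 bp in parental cells.

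The direction of the height difference at 6 h was not that of untreated cells. At regions called in all 10 libraries, the median log2 height ratio was 0.42 with DMSO and 0.38, -0.10 and -0.55 after 2, 4 and 6 h of prexasertib. Over the background per bp of smallest width the values were 0.39, 0.42, 0.00 and -0.27, and over the local background 0.15, 0.14, -0.03 and -0.30. With no division they were 0.38, 0.89, 0.38 and -0.16, so the sign at 4 h depended on the background. The 4 h values rest on the parental library whose raw reads are recorded as truncated and whose background, 1.33, was the lowest of the series. Region by region, the log2 ratio at 6 h minus that with DMSO had a median of -0.97 over 11565 regions, and 75.1% were higher in knockout cells with DMSO and lower at 6 h, or 62.8% with the smallest width allowed for. The width ratio kept its sign over time in prexasertib, at 0.21 with DMSO and 0.38, 0.19 and 0.09 after 2, 4 and 6 h. After 4 h of camptothecin the median log2 height ratio at these regions was -0.64, or -0.37 with no division, and the width ratio was -0.06. A height ratio below 0 was therefore not particular to 6 h of prexasertib.

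The change between DMSO and 6 h was larger in the parental libraries. At these regions the median log2 height ratio of 6 h over DMSO was 0.06 in knockout cells and 1.05 in parental cells, and with the smallest width allowed for it was 0.05 in knockout cells and 0.73 in parental cells. With no division it was 0.38 in knockout cells, where 88.4% of regions were higher at 6 h, and 0.95 in parental cells, so the small knockout value rested on the division. Chromosome 1, 43855194 to 43855829, came first by the fall of the height ratio from DMSO to 6 h, a rule added after the values were seen. This region is thus an extreme and not a typical one. Its height at 6 h was 20.6 in knockout cells and 46.6 in parental cells, against 25.7 in knockout and 7.96 in parental cells with DMSO.

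**Figure D5:**
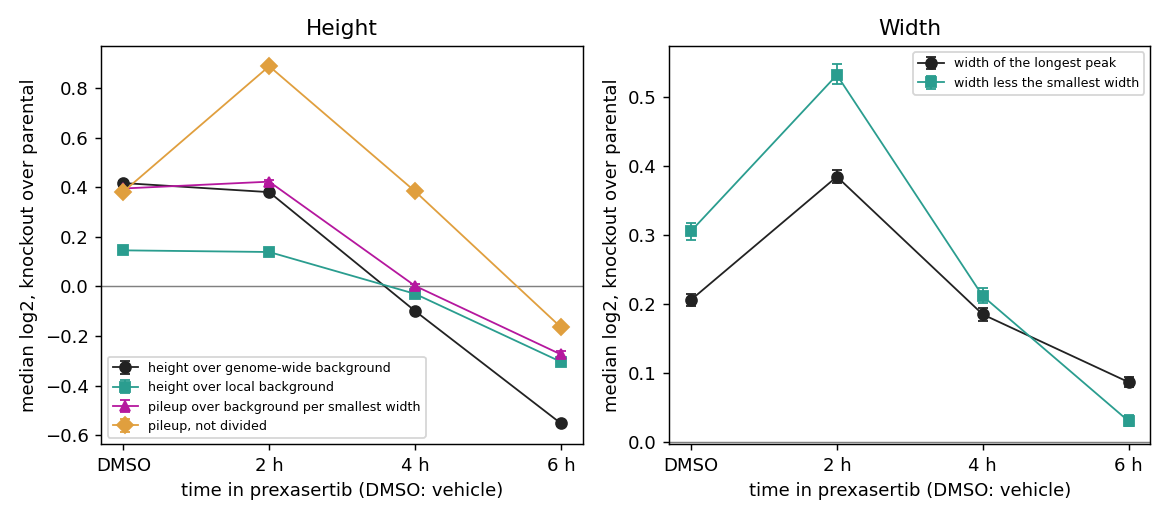
Median log2 ratio, knockout over parental, of height (left) and width (right) at the regions called in all 10 libraries, by time in prexasertib in h, DMSO at the left; bars are 95% order-statistic intervals over regions, and lines differ in scaling. Height over the genome-wide background lies at 0.42 with DMSO and -0.55 at 6 h, while width stays above 0 throughout. The 4 h points use the parental library whose raw reads are recorded as truncated.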

How the data were processed

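The peak lists, 1 per library, are on hg19. The submitters' processing notes name MACS2 2.1.2, BWA 0.7.17, Picard 2.9.2, Trimmomatic 0.39, Trim Galore 0.6.2 and SAMtools 1.8, without parameters. The authors deposited, for each summit, a score, a fold over local background (a ratio) and −log10 p and −log10 q values, all with a −log10 q above 2. Lines with equal start and end were joined, and peaks on chromosomes 1 to 22 and X of all 10 lists were merged at 1 bp of overlap. Pileup and local background were solved from the deposited fold and −log10 p, with a match within 0.001 for 99.7% to 99.8% of summits; the smallest background of a list is its genome-wide background. Width is that of the longest peak in a region. Shares have Clopper-Pearson and medians order-statistic intervals. Steps were tested on simulated data, in Python 3.11.15 with numpy 2.4.6 and scipy 1.17.1.

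Named regions are, at 6 h, the 8 of each genotype alone with the highest −log10 q, the 5 of each also absent from the other genotype's libraries, the 5 extremes of height ratio (height of at least 5 in the higher library), of width ratio (1 peak in each list) and of their product, and the 5 windows of 1 Mb with the most regions of each genotype alone. The comparison and these rules were chosen with earlier results of these data known.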

Additional observations from a re-analysis of the deposited data

Results flagged for a closer look

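The height ratio of knockout over parental had opposite signs in 2 conditions. Over regions called in both libraries of a condition, its median log2 was -0.47 after 6 h of prexasertib and 0.40 with DMSO. With 1 library per group this difference was not tested. The background pileup was 1.99 in knockout and 1.52 in parental cells at 6 h, and 1.59 in knockout and 1.63 in parental cells with DMSO. The smallest peak width was 194 bp in knockout and 160 bp in parental cells at 6 h, and 196 bp in knockout and 199 bp in parental cells with DMSO. Their part in the change of sign was not tested.

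Peaks outside chromosomes 1 to 22 and X, which entered no comparison, made up 2.17% of the knockout list and 2.64% of the parental list at 6 h, above the 1.75% of each DMSO list.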

How the results depend on the processing

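Of the 3 results on regions in 1 genotype only, the sign of knockout-only minus parental-only regions, 121 as reported, was the least firm. It was -575 (1531 knockout only and 2106 parental only) when only peaks with a −log10 q of 10 or more were used, -1804 with the knockout list scaled to the parental background and -691 (4172 knockout only and 4863 parental only) with scaling by background per smallest width. It was 380 with lists of equal length and 1887 with peaks of at least 194 bp only. A reciprocal overlap of 50% gave 7474 knockout-only and 7353 parental-only regions.

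The median log2 height ratio was -0.47 as reported. It was -0.0825 without division, -0.27 over the local background, -0.55 in regions called in all 10 lists, -0.57 with the stricter −log10 q, -0.51 with summits within 100 bp and -0.19 over the background per smallest width. The width ratio was 0.11 as reported, 0.087 in regions called in all 10 lists, 0.0806 with the stricter −log10 q and 0.0404 less the smallest width. The share lower and wider was 30.2% without division, 52.0% in all 10 lists, 55.1% with the stricter −log10 q, 36.1% over the background per smallest width and 29.6% with width adjusted too. With classes made from the 6 h libraries, strongest minus weakest was -0.50 for height, against -0.32, and -0.18 for width, against -0.09. The range of chromosome medians was 0.16 over the local background, against 0.50. The alternatives on smallest width were chosen after seeing the data. The cause of these shifts was not tested.

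No paired analysis was possible because each group has 1 library. No library was left out, and no difference was set against replicate spread. Depth in reads is unknown, and the parental library has the lower background.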
